A study of Rattus norvegicus with 4 samples.

Results

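Solute carriers (the Slc and Slco genes) are the membrane proteins that move amino acids, sugars, ions, metals, nucleotides and vitamins across the cell surface and the membranes of organelles. The members described here are all gene probes on the array whose current rat symbol begins with Slc, a family number and a or b with a member number, or with Slco. The rule found 402 of 33849 gene probes and 280 of 12324 named genes. Of the 280 genes, 150 had a probe detected on at least 2 of the 4 arrays and were tested, against 7768 genes tested over the whole array. Each gene is given at its brightest tested probe. The rule used symbols only, and no measured value.

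The tissue was the rat crista ampullaris, the sensory epithelium at the base of each semicircular canal that detects rotation of the head. Laser capture took 2 layers. The superficial layer, labelled as hair cells, is the outer part of the epithelium, with type I and type II hair cells, recognised by their hair bundle and the nerve calyx around them, and the supporting cell cytoplasm between them. The basal layer, labelled as supporting cells and taken second, holds the supporting cell bodies that sit on the basal lamina. Each layer has 2 single-colour arrays, and the labels give no strain, age, sex, genotype or treatment for either. Nothing in the labels ties the arrays of a layer to separate animals or captures, so a p-value here measures the spread between these samples alone, and that spread may be technical. In captured tissue, fewer cells of a type and less RNA per cell cannot be told apart. The study concerned trophic factors of supporting cells, and the question put to its arrays here is which transporter genes differ between the layers.

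Hair cells work between a potassium-rich endolymph and a sodium-rich perilymph, and transporters of the epithelium set both fluids, clear glutamate from the hair cell synapse and feed cells that lie above the nearest vessel. Many carriers draw on the sodium gradient made by the sodium pump. Others exchange one solute for another, and the branch of the Slc7 family known as light chains reaches the membrane bound to a heavy chain of the Slc3 family.

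The median raw intensity was 26.5 and 16.98 on superficial layer arrays 1 and 2, and 12.1 and 12 on basal layer arrays 1 and 2. Detected solute carrier probes numbered 197 (49.0%), 178 (44.3%), 140 (34.8%) and 133 (33.1%) of 402 on the same arrays, against 48.8%, 45.6%, 39.8% and 39.7% of all gene probes. The layers were checked against marker genes. Of 8 hair cell markers, 7 were higher in the superficial layer, and their summed signal was 5301 and 5491 there against 874 and 872. Of 6 supporting cell markers, 4 were higher in the basal layer (Tecta, Prox1, Gata3 and Sox9) and 2 in the superficial layer (Otog and Sox2), with sums of 547 and 565 in the superficial layer and 687 and 707 in the basal layer. All 5 tested markers of vessels were higher in the basal layer, where the 4 that had a value on every array summed to 878 and 895 against 107 and 127. So were 3 of 5 tested markers of connective tissue, which summed to 2293 and 2356 against 955 and 968. Of the tested markers of neurons, 2 were higher in the superficial layer and 1 in the basal layer; of Schwann cells, 1 and 1; of dark cells and melanocytes, 1 (Pmel) and 1 (Mitf); and of blood and immune cells, 1 and 2. The part of vessel and connective tissue RNA in the results on the basal layer was not tested.

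Levels are raw intensities made comparable between the 4 arrays by quantile normalization; they compare arrays for 1 probe and not 1 gene with another. A change is the log2 level of the basal layer minus that of the superficial layer, with its standard error, so a negative change is a higher level in the superficial layer. A gene was called when its adjusted p from limma (Benjamini-Hochberg, over every tested probe) was under 0.05. Of the 150 tested solute carrier genes, 97 (64.7%) were called, against 65.4% of all tested genes, so the share that differed was close to the background. By direction, 63 (42.0%) were higher in the superficial layer against 37.2% of all genes, and 34 (22.7%) in the basal layer against 28.2%. Their median change was -0.28, against -0.10 over all tested genes.

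Many of the calls towards the superficial layer were genes detected in that layer alone. Of the 150, 35 (23.3%) were detected on both superficial layer arrays and on neither basal layer array, against 14.1% of all tested genes, and 24 of the 35 were called higher in the superficial layer. The reverse pattern was seen for 4 (2.67%), against 2.83% of all genes. Among the 91 genes detected on all 4 arrays, 34 (37.4%) were higher in the superficial layer and 25 (27.5%) in the basal layer, against 34.1% and 31.5% of all genes so detected, and the median change was 0.0061. Where a gene was not above background in a layer, the fold is a lower limit set by the lowest detected signal of that layer's arrays (13.9 and 18.5 in the superficial layer, 26.6 and 28.3 in the basal layer). With the values as the scanner software normalized them, 48 (32%) were higher in the superficial layer and 14 (9.33%) in the basal layer, against 20.7% and 13.5% of all genes. Leaving out superficial layer array 1 or 2 left 114 or 117 genes tested. A probe detected on the superficial layer arrays alone then had 1 detection, under the 2 required, and dropped out. These settings therefore cannot show whether the higher share of solute carriers there depends on either array.

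**Figure D1:**
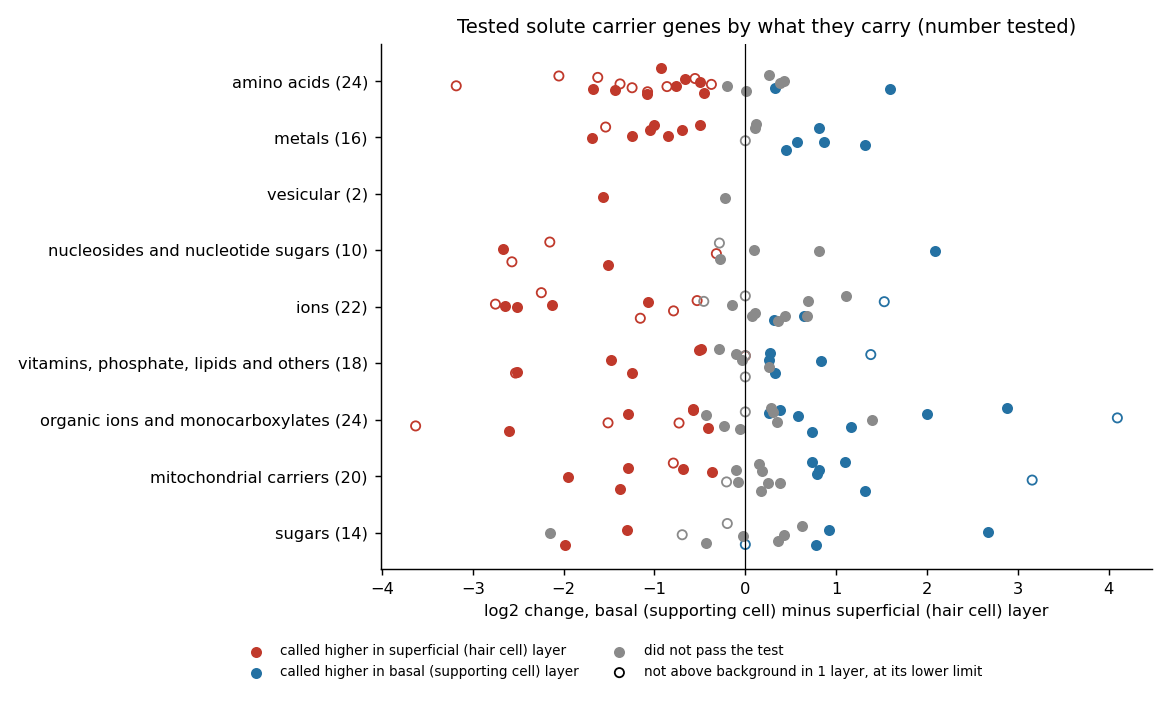
The log2 change of each of the 150 tested solute carrier genes, as 1 point per gene, in rows by what the family carries (vertical scatter within a row only separates points); filled points have a fitted change, open points are not above background in 1 layer and stand at their lower limit, or at 0 where no limit could be set. Amino acid genes lie mostly left of 0 (median -0.71 with the limits as drawn), while organic ion and mitochondrial genes spread over both sides.

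**Figure D2:**
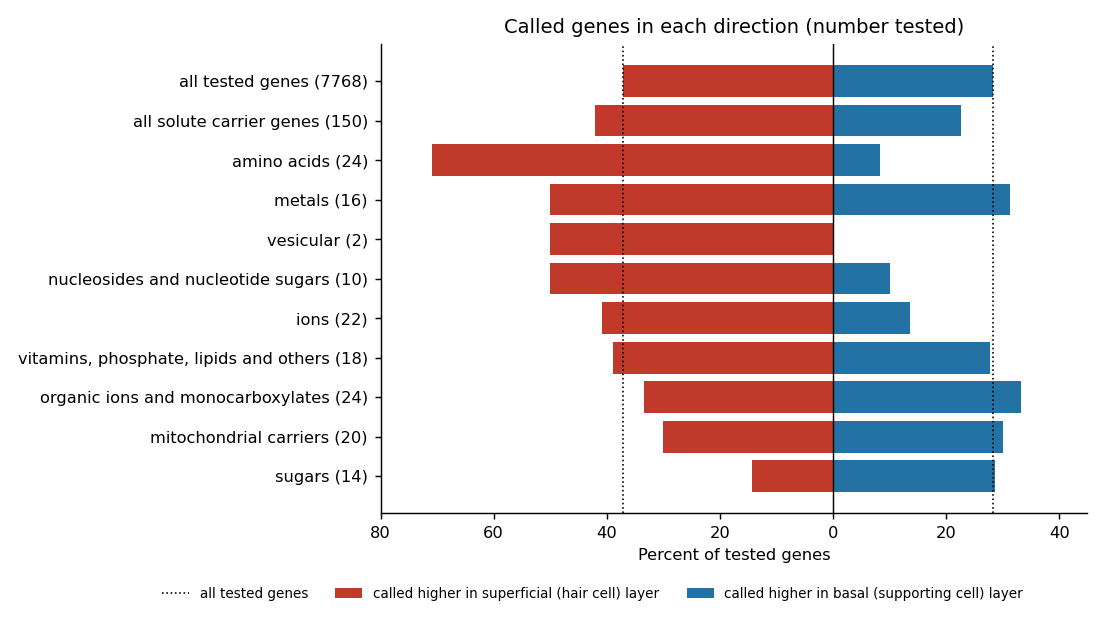
The percent of tested genes called higher in the superficial layer (red, to the left) and in the basal layer (blue, to the right) for each group of carriers, with the number tested and dotted lines at the shares of all 7768 tested genes. Of the amino acid genes, 70.8% were called higher in the superficial layer and 8.33% in the basal layer.

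Amino acid transporters had the largest share of genes higher in the superficial layer among these groups, followed by metal transporters and nucleoside carriers, each with 50%, as in the 2 tested vesicular genes. That order did not hold in several settings. With the scanner software's values the nucleoside carriers had 5 of 10, against 10 of 24 amino acid genes. With no filter on dim probes the nucleoside carriers had 5 of 15, against 7 of 51. On probes detected on all 4 arrays, amino acid and metal genes each had 7 of 14. Of 51 measured amino acid genes, 24 were tested. Of these, 17 (70.8%) were called higher in the superficial layer, against 37.2% of all tested genes. In the basal layer 2 (8.33%) were called higher, against 28.2%. The median change was -0.97, against -0.10 over all tested genes. All 4 tested members of Slc38, which carry glutamine and other neutral amino acids with sodium, were among the 17, as were 6 of 8 of Slc7 and 4 of 7 of Slc6. Of the 24, 9 (37.5%) were detected on the superficial layer arrays alone, against 14.1% of all tested genes, and all 9 were among the 17. On all 4 arrays 14 were detected. Of those, 7 (50%) were higher in the superficial layer and 2 (14.3%) in the basal layer. The shares of all genes so detected were 34.1% and 31.5%. The count in the superficial layer was 10 of 24 with the scanner software's values and 13 of 24 with the arrays scaled to their medians. With no filter on dim probes it was 7 of 51, and over all genes 1608 of 12323. In that setting the share of amino acid genes was thus close to that of all genes. Without superficial layer array 1 or 2, 16 were tested each time, since probes detected on that layer's arrays alone then had too few detections. Those settings cannot show whether the count depends on either array. The count of 17 includes Slc7a6os, which matches the naming rule but is an antisense neighbour of Slc7a6 and not a carrier. Probes of all kinds were detected more often on the superficial layer arrays, and the part of this in the counts was not tested.

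**Figure D3:**
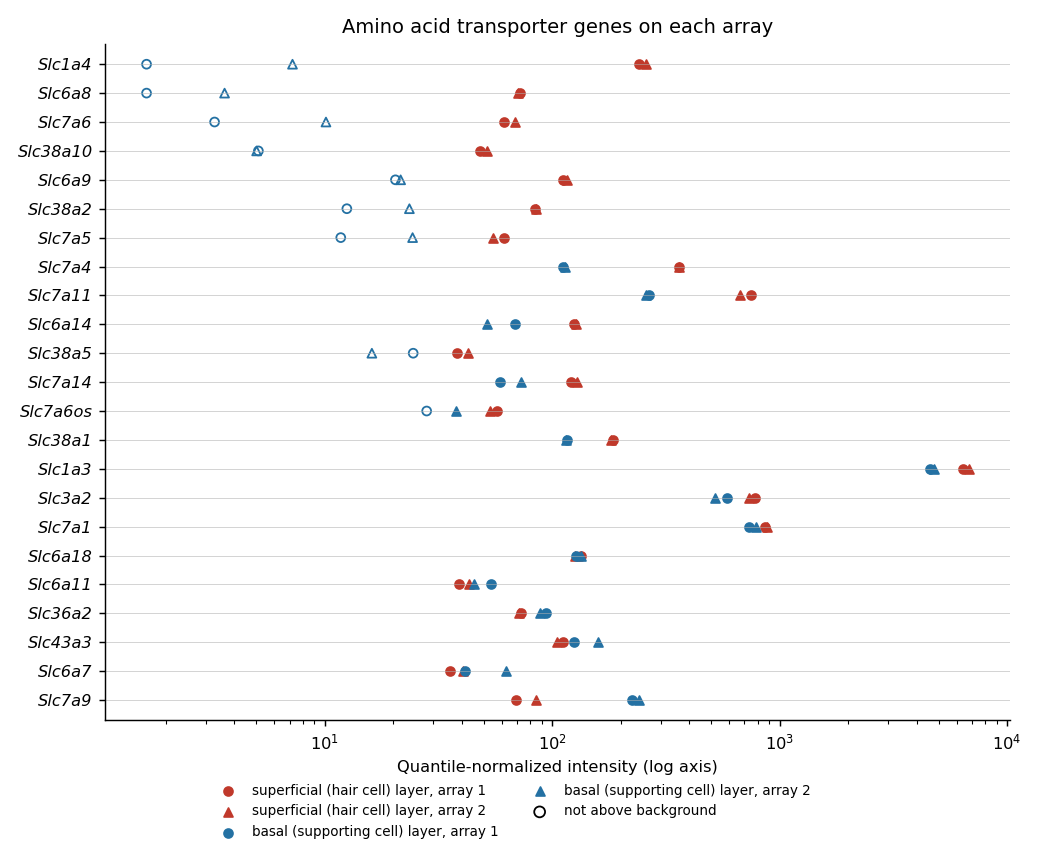
The level on each of the 4 arrays, on a log axis, of the tested amino acid genes that have a value on every array, in order of the log2 change; filled symbols are above background and open ones are not. From Slc1a4 down to Slc7a1 both superficial layer arrays lie to the right of both basal layer arrays.

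Slc1a4, an exchanger of alanine, serine and cysteine, gave 239.7 and 259 on the superficial layer arrays and was under background on each array of the basal layer. Its level was at least 9.08-fold higher in the superficial layer (adjusted p = 0.00925). Another probe of Slc1a4 was not above background on any array. Slc1a3, the glutamate transporter of glia and of supporting cells, was read on every array: 6399 and 6798 in the superficial layer and 4589.9 and 4776 in the basal layer. The layers did not overlap, but the difference was small (change -0.49 ± 0.079, adjusted p = 0.0133), and it passed the test in 11 of 14 alternative settings, with adjusted p from 0.00168 to 0.888.

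Slc7a11, the light chain that takes up cystine in exchange for glutamate, read 748 and 672 in the superficial layer and 266 and 258 in the basal layer (change -1.44 ± 0.092, adjusted p = 0.00228). Its partner Slc3a2, the heavy chain that brings several Slc7 light chains to the surface, read 778 and 732 against 586 and 518 (change -0.45 ± 0.10, adjusted p = 0.0296). Both were thus higher on both superficial layer arrays, Slc7a11 by more. Slc7a4, a relative of the cationic amino acid transporters, read 361 and 362 against 112 and 114 (change -1.68 ± 0.068). Slc7a5, the large neutral amino acid light chain, read 61.2 and 54.7 and was not above background in the basal layer, a fold of at least 2.11; its adjusted p was 0.0325, and from 0.000267 to 0.0961 over its alternatives. The exception in the family was Slc7a9, the cystine and dibasic amino acid light chain known from kidney. It read 69.3 and 85.1 in the superficial layer and 225 and 239.8 in the basal layer (change 1.60 ± 0.14, adjusted p = 0.00372), and passed in 14 of 14 alternatives. Slc7a4 and Slc7a9 were therefore called in opposite directions, each with all 4 arrays above background.

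In Slc38, Slc38a2 read 84.0 and 85.3 in the superficial layer and was not above background in the other (at least 3.08-fold; adjusted p = 0.0129, from 8.73e-06 to 0.0506 over its alternatives). Slc38a1 read 184 and 181 against 116 and 115 (change -0.66 ± 0.068) and passed in 11 of 14 alternatives, with adjusted p from 0.000553 to 0.396. Both carry glutamine into cells with sodium. In Slc6, the creatine transporter Slc6a8 read 72.1 and 70.7 in the superficial layer and at least 2.60-fold less in the basal layer (adjusted p = 0.00418). The glycine transporter Slc6a9 read 112 and 116 and at least 4.15-fold less on its brightest probe, while its other probe had a change of 6.30 in the opposite direction, so no direction holds for the gene. The mean over both probes had a change of 1.93.

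Cells that run short of amino acids are known to raise transporter genes through the transcription factor ATF4, which binds the amino acid response element. Its core, TGATGNAA, was searched on both strands of the 250 bases before the start of each gene in the RefSeq promoters of GRCr8; 125 of the 150 tested genes had a promoter there. It was found in 6 of the 125 (4.8%), against 3.27% of all 27457 promoters. All promoters include those of genes not detected or not on the array. No share over the tested genes alone was counted, for this motif or those below, so the shares are not like for like. A match is a description of the letters, and not evidence of binding. The 3 amino acid genes with a match are shown 5′ to 3′ on the strand of the gene, with the match in capitals, since they show what a match looks like in the group just described; Slc1a4 and Slc38a1 were higher in the superficial layer, and Slc7a1, a cationic amino acid transporter, did not pass the test (862 and 877 against 732 and 786, adjusted p = 0.104).
Slc1a4, chr14:98761779-98761808, minus strand, match on the opposite strand: cgcctccagcgTTGCATCAtccagccagca
Slc38a1, chr7:129681525-129681554, minus strand: gggggaaactcTGATGCAAccaaccagtcc
Slc7a1, chr12:11664447-11664476, plus strand: cggcgcgcggcTGATGAAAccggctcggat
The matches lie 227, 134 and 22 bases before the annotated starts, and the stretch of Slc38a1 lies within the annotated span of the gene, which has another start. The other 3 genes with a match were Slc35a2, Slc9a9 and Slc49a4. Of 4 other motifs searched in the same way, the E-box CACGTG was in 17 of 125 (13.6%) against 5.79% of all promoters; 8 of the 17 genes were called higher in the superficial layer, 6 in the basal layer and 3 did not pass. The antioxidant core TGACNNNGC was in 15.2% against 10.2%, the cAMP element TGACGTCA in 2.4% against 1.7%, and the core of the tonicity element in 3.2% against 5.82%.

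Of 39 ion transporters measured, 22 were tested and 12 (54.5%) were called, against 65.4% of all genes; 9 were higher in the superficial layer, 3 in the basal layer and 10 did not pass. The 9 include Slc4a1ap, an adaptor protein and not a carrier. Without superficial layer array 1 or 2, 14 or 15 were tested, since probes detected on that layer's arrays alone then had too few detections. Those settings cannot show whether the count of 9 depends on either array. Several of the 9 were exchangers that move calcium or protons against sodium. Slc8a1, the sodium-calcium exchanger NCX1, read 184 and 186 in the superficial layer and was under background on each array of the other, a fold of at least 6.73 (adjusted p = 0.00232). Its other probes were not above background on any array. Its paralog Slc8a2 had the opposite pattern: not above background in the superficial layer and 49.3 and 46.0 in the basal layer, at least 2.89-fold higher there (adjusted p = 0.00216). Another probe of Slc8a2 was not above background on any array. Slc8a1 and Slc8a2 each passed in all 11 alternatives that gave a value. Slc24a3, an exchanger that also carries potassium, was above background on all arrays, at 1380.3 and 1286 in the superficial layer and 234 and 231 in the basal layer (change -2.52 ± 0.078, adjusted p = 0.00120).

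Of the sodium-proton exchangers, Slc9a2 read 885 and 997 in the superficial layer and 154 and 146 in the basal layer (change -2.65 ± 0.10, adjusted p = 0.00135). Of its other probes, 1 had a change of -2.52 and 1 of 0.42. Slc9a8, of the Golgi and endosomes, read 236 and 193 against 44.9 and 52.7 (change -2.13 ± 0.16, adjusted p = 0.00292). Both were higher in the superficial layer in all 14 alternatives. Slc9a9, of recycling endosomes, had 24.1 and 40.2 against 55.7 and 44.6 and did not pass (adjusted p = 0.142). The exchanger of the inner mitochondrial membrane Slc8b1 read 1557 and 1653 against 790.2 and 743 (change -1.07 ± 0.083, adjusted p = 0.00311).

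The cation-chloride cotransporters of Slc12 had 2 of 5 tested members higher in the basal layer, 1 in the superficial layer and 2 that did not pass. Slc12a2, NKCC1, which loads potassium into the dark cells that make endolymph, read 1234 and 1206 in the superficial layer and 1499 and 1542 in the basal layer. That difference was small (change 0.32 ± 0.071, adjusted p = 0.0282) and passed in only 6 of 14 alternatives, with adjusted p from 0.00213 to 0.485. Slc12a7, the potassium-chloride cotransporter KCC4 of inner ear supporting cells, read 64.4 and 62.6 in the superficial layer against 100.05 and 99.3 (change 0.65 ± 0.069, adjusted p = 0.00562; 12 of 14 alternatives, adjusted p from 0.000621 to 0.154). Slc12a9, an orphan member, was not above background in the basal layer and at least 2.23-fold higher in the superficial layer. Among anion and bicarbonate carriers, the sodium-bicarbonate cotransporter Slc4a4 was at least 1.73-fold higher in the superficial layer (adjusted p = 0.0101), and its other probe had a change of -3.85. Slc26a8, an anion transporter known from sperm, was at least 4.74-fold higher there (adjusted p = 0.0179, from 1.95e-08 to 0.0618 over its alternatives). The anion exchanger Slc4a2 (adjusted p = 0.0990), Slc4a10 (adjusted p = 0.285) and Slc4a11 (adjusted p = 0.325) did not pass.

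Carriers of organic ions, monocarboxylates, bile acids and peptides gave 8 calls (33.3%) in each direction among 24 tested of 55 measured. Of all tested genes, 37.2% were called higher in the superficial layer and 28.2% in the basal layer. Without superficial layer array 1 or 2, 20 or 21 genes of the group were tested, since probes detected on that layer's arrays alone then had too few detections. In the main setting the group held the largest lower limits of fold in both directions. Slc10a7, an orphan of the bile acid family, read 337 and 342 in the superficial layer and was not above background in the basal layer, at least 12.4-fold less (adjusted p = 0.00791). Slco2b1, an organic anion transporter of many barriers, was the reverse: not above background in the superficial layer and 288 and 260.3 in the basal layer, at least 17.1-fold more (adjusted p = 0.00138). Both kept their call in all 11 alternatives that gave a value. Slco1a4, an organic anion transporter of brain capillaries, read 156 and 161 against 354 and 357 (change 1.17 ± 0.070, adjusted p = 0.00208). The vessel markers Tie1, Tek and Pecam1 moved the same way, with changes of 3.54, 3.22 and 1.05, and their part in the Slco results was not tested. Slco4a1, a thyroid hormone transporter, was at least 2.85-fold higher in the superficial layer on its brightest probe and higher in the basal layer on its other probe (change 0.74).

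Slc16a6, a monocarboxylate transporter, had the largest change towards the basal layer of any member above background on all 4 arrays. It read 33.4 and 32.8 in the superficial layer and 264 and 223 in the basal layer (change 2.88 ± 0.12, adjusted p = 0.00142). Its relative Slc16a11 read 68.9 and 66.6 in the superficial layer and was above background on 1 of 2 arrays of the other (change -1.29 ± 0.29, adjusted p = 0.0292, from 0.00245 to 0.0936 over its alternatives). Of the organic cation family, Slc22a3, a low-affinity carrier of monoamines, read 54.2 and 57.6 against 236 and 213 (change 2.0 ± 0.095, adjusted p = 0.00162), and its other probe had a change of 1.41. Slc22a23, an orphan, was the opposite, at 318 and 358 against 54.9 and 56.4 (change -2.60 ± 0.095, adjusted p = 0.00133), though its other probes had changes of -0.76 and 0.26. Slc22a13, a urate and nicotinate carrier, read 68.8 and 70.7 against 124 and 109 (change 0.73 ± 0.10, adjusted p = 0.00977).

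**Figure D4:**
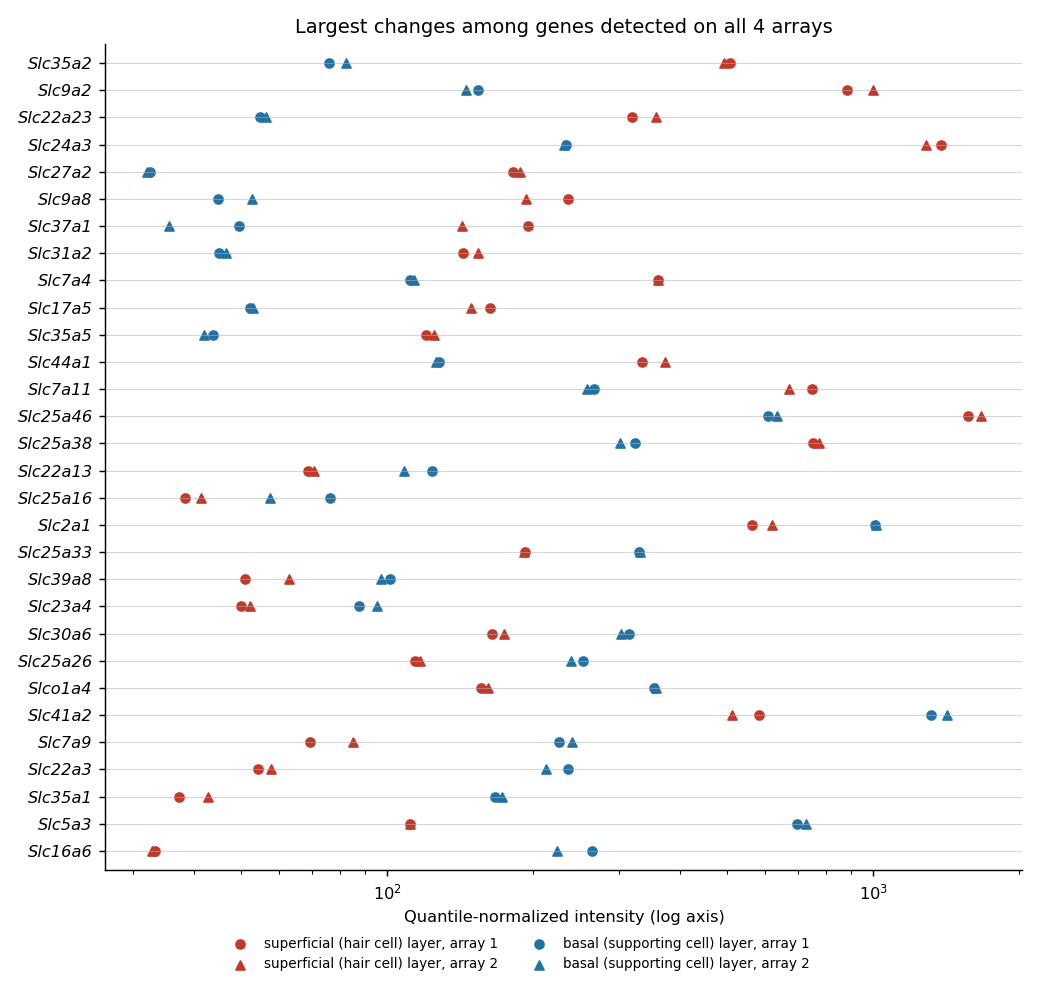
The level on each of the 4 arrays, on a log axis, of the 15 solute carrier genes with the largest called change in each direction among those above background on all 4 arrays. Red superficial layer symbols and blue basal layer symbols do not overlap for any of the 30, which the choice of genes requires; the changes run from -2.66 (Slc35a2, top) to 2.88 (Slc16a6, bottom).

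Sugar transporters were called higher in the basal layer about as often as all tested genes, 28.6% against 28.2%. In the superficial layer the shares were 14.3% and 37.2%. The group thus had more calls in the basal layer than in the superficial layer, 4 against 2 of 14 tested, with 8 not past the test. That order turned, to 1 against 5 with the scanner software's values and 3 against 4 with median scaling. With no filter on dim probes it was 1 against 2 of 24 tested. The order also turned without basal layer array 1 or 2, where 1 array of that layer was left. Slc5a3, which takes up the osmolyte myo-inositol with sodium, read 111 and 112 in the superficial layer and 698 and 728 in the basal layer (change 2.68 ± 0.072, adjusted p = 0.00116), and passed in 14 of 14 alternatives. Slc2a1, the glucose transporter of blood barriers and of erythrocytes, read 563 and 618 against 1010.5 and 1012 (change 0.78 ± 0.086, adjusted p = 0.00604). Its other probe had a change of 0.79, and it passed in 12 of 14 alternatives, with adjusted p from 0.000163 to 0.109. The vessel markers were 107 and 127 against 878 and 895 in summed signal, a larger rise than that of Slc2a1, and their part in it was not tested. Higher in the superficial layer were Slc37a1, a glucose-6-phosphate antiporter, at 195 and 143 against 49.5 and 35.7 (change -1.99 ± 0.26, adjusted p = 0.00885), and the urate carrier Slc2a9 (change -1.31 ± 0.16, adjusted p = 0.00710). Slc5a11, another myo-inositol carrier, was called towards the basal layer, where neither array was above background, so its call gives no fold.

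Of 16 tested metal transporters, 8 were higher in the superficial layer and 5 in the basal layer, 81.25% called against 65.4% of all genes. The counts were 4 and 1 with the scanner software's values and 6 and 3 with median scaling. Of the 13 called, 8 were in Slc39, whose members bring zinc into the cytosol. Of its 10 tested members, 6 were higher in the superficial layer and 2 in the basal layer. Slc39a6 read 89.8 and 70.7 in the superficial layer and was at the lowest value used on both basal layer arrays, at least 2.90-fold less (adjusted p = 0.00116). Slc39a11 read 202 and 203 against 87.5 and 83.3 (change -1.25 ± 0.073). Slc39a8, which also carries manganese, was one of the 2 in the other direction, at 50.9 and 62.8 against 101 and 97.1 (change 0.81 ± 0.14, adjusted p = 0.0154). Most Slc30 members move zinc out of the cytosol. Of the 3 tested, Slc30a6 (164 and 174 against 314 and 303, change 0.87 ± 0.077) and Slc30a9 (change 0.57 ± 0.091) were higher in the basal layer. Slc30a4 did not pass (adjusted p = 0.104). The other probe of Slc30a9 had a change of -0.14 and did not pass (adjusted p = 0.711). At its brightest probe Slc30a9 passed in 10 of 14 alternatives.

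Slc41a2, a magnesium transporter, read 583 and 512 in the superficial layer and 1315 and 1419.5 in the basal layer (change 1.32 ± 0.11, adjusted p = 0.00340). The copper carrier Slc31a2 was the reverse, at 143 and 154 against 45.2 and 46.7 (change -1.69 ± 0.080, adjusted p = 0.00161). The iron carrier Slc11a2 had a change of -0.50 ± 0.082 on its brightest probe and of 0.54 on its other, both called, so the gene has no settled direction. The same held for the zinc carrier Slc39a13, with -1.01 ± 0.085 and 0.77.

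Of 20 tested mitochondrial carriers of Slc25, 6 (30%) were higher in each layer, against 37.2% (superficial) and 28.2% (basal) of all genes. The other 8 did not pass. With the scanner software's values 4 were higher in the superficial layer and 2 in the basal layer, and with the replicate block 3 in each. The ADP/ATP carriers, which hand ATP to the cytosol, were among those that did not pass. Slc25a4 read 1526 and 1542 against 1664 and 1793 (change 0.17 ± 0.080, adjusted p = 0.139), and Slc25a5 read 1682 and 1603 against 1774 and 1949 (change 0.18 ± 0.090, adjusted p = 0.160). Larger differences were seen in other members. Slc25a46, an outer membrane protein of mitochondrial dynamics, read 1568 and 1665 against 609 and 635 (change -1.38 ± 0.079, adjusted p = 0.00198), and the glycine carrier Slc25a38 had a change of -1.29 ± 0.080. Towards the basal layer, Slc25a45 was not above background in the superficial layer and read 144 and 142 in the other, at least 8.92-fold more (adjusted p = 0.00276). Slc25a26, which imports S-adenosylmethionine, read 114 and 117 against 253 and 239 (change 1.09 ± 0.076, adjusted p = 0.00258), and the pyrimidine nucleotide carrier Slc25a33 read 192 and 191 against 331 and 332 (change 0.79 ± 0.068). Slc25a16 was higher in the basal layer (change 0.73 ± 0.18, adjusted p = 0.0351) but passed in only 9 of 14 alternatives, with adjusted p from 0.00658 to 0.122. The NAD carrier Slc25a51 was at least 1.73-fold higher in the superficial layer (adjusted p = 0.0153, from 3.10e-06 to 0.0559 over its alternatives).

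Among genes detected on all 4 arrays, the nucleotide sugar carriers of the Golgi, Slc35a, held the pair of relatives with the widest split, -2.66 against 2.09. Slc35a2, which brings in UDP-galactose, read 507 and 494 in the superficial layer and 75.9 and 82.2 in the basal layer (change -2.66 ± 0.082, adjusted p = 0.00119). Slc35a1, which brings in CMP-sialic acid, read 37.3 and 42.7 against 167 and 173 (change 2.09 ± 0.10, adjusted p = 0.00167). The 2 genes were called in opposite directions with no overlap between layers in either, and both passed in all 14 alternatives; the second probe of Slc35a2 had a change of 0.39 and did not pass (adjusted p = 0.332). Slc35a3, the UDP-N-acetylglucosamine carrier, read 137 and 109 in the superficial layer and was at least 4.45-fold lower in the other, and Slc35a5 read 120.2 and 125 against 43.8 and 42.0 (change -1.51 ± 0.075). Slc35a4 was also higher in the superficial layer (at least 1.25-fold; adjusted p = 0.00696, from 1.04e-07 to 0.122 over its alternatives). For the lysosomal nucleoside transporter Slc29a3, the brightest probe was at least 5.94-fold higher in the superficial layer, and the other probes had changes of 1.55 and 2.33.

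Opposite calls between relatives were not limited to Slc35. In 9 families, 1 member above background on all arrays was called higher in the superficial layer and another in the basal layer. Beyond Slc35, Slc22, Slc16, Slc7, Slc25 and Slc39 these were the fatty acid carriers Slc27a2 (182 and 188 against 32.6 and 32.1, change -2.51 ± 0.070) and Slc27a6 (change 0.27 ± 0.076), the choline carriers Slc44a1 (334 and 374 against 128 and 126, change -1.48 ± 0.093) and Slc44a2, and Slc13a4, of sulfate, and Slc13a3, of dicarboxylates (changes -0.41 ± 0.098 and 0.27 ± 0.070). Slc44a2, known as an inner ear antigen, read 389 and 396 against 469 and 469; its difference (change 0.26 ± 0.068, adjusted p = 0.0420) passed in only 4 of 14 alternatives, with adjusted p from 0.00491 to 0.554. The other tested probes of Slc44a1 had changes of -1.35 and 0.17, and at its brightest probe it passed in 13 of 14 alternatives. Of the 21 families with at least 2 called members, 14 had calls in both directions. Over all tested genes, 37.2% were called higher in the superficial layer and 28.2% in the basal layer. The same counts were not made for other gene families, so mixed calls are not shown to be a trait of solute carriers.

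Vesicular carriers gave few values. Of 10 measured, 2 were tested. Sialin, Slc17a5, of lysosomes and synaptic vesicles, read 163 and 149 in the superficial layer and 52.3 and 52.9 in the basal layer (change -1.56 ± 0.084, adjusted p = 0.00184). The monoamine carrier Slc18a1 read 46.4 and 45.1 against 40.5 and 38.1 and did not pass (adjusted p = 0.0785). Slc17a8, the vesicular glutamate transporter of hair cells, was above background on 1 array of 4 and was not tested. Its relatives Slc17a6 and Slc17a7, the GABA carrier Slc32a1, and Slc18a2 and Slc18a3 were above background on none.

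Of the 18 tested carriers of vitamins, phosphate, lipids and other solutes, 7 (38.9%) were higher in the superficial layer and 5 (27.8%) in the basal layer, against 37.2% and 28.2% of all genes. The basal count was 1 with the scanner software's values, with no filter on dim probes, with the replicate number as a block and without basal layer array 1 or 2, 2 with median scaling and without superficial layer array 2, and 3 without superficial layer array 1. The folate carrier Slc19a1 read 160.3 and 157 in the superficial layer and was at least 5.78-fold lower in the other (adjusted p = 0.0392, from 5.33e-15 to 0.106 over its alternatives). The acetyl-CoA carrier Slc33a1 read 412 and 378 against 165 and 168 (change -1.25 ± 0.083). Slc49a4, of lysosomes, was at least 2.60-fold higher in the basal layer (adjusted p = 0.0355, from 1.71e-10 to 0.0992 over its alternatives), and Slc23a4, of the ascorbate transporter family, was higher there too (change 0.84 ± 0.086). The riboflavin carriers Slc52a2 (adjusted p = 0.318) and Slc52a3 (adjusted p = 0.391) did not pass.

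The 130 genes that were not tested include several that the inner ear is known for. Of them, 109 had no probe above background on any array and 21 had one on 1 array. Not above background on any array were Slc26a5, the motor protein prestin of cochlear outer hair cells, Slc26a4, pendrin, the glutamate carriers Slc1a1 and Slc1a2, the taurine carrier Slc6a6, the thiamine carrier Slc19a2, the lactate carrier Slc16a1, the thyroid hormone carrier Slco1c1, the potassium-chloride cotransporters Slc12a4 and Slc12a5, the exchangers Slc9a3 and Slc4a7, Slc2a5, Slc22a4 and Slc30a3. A signal under the background of the array is a limit of detection and not an absence. No probe was named here for Slc7a8 and Slc45a2.

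Where a gene had several probes, they often differed. Of 30 solute carrier genes with at least 2 tested probes, all probes had the same sign in 13 (43.3%), against 56.9% of 1189 genes over the whole array. Called changes of opposite sign were found in 5 (16.7%), which were Slc6a9, Slc29a3, Slc39a13, Slc11a2 and Slco4a1, against 16.2% of all. The direction of these 5 rests on the choice of probe. Probes that were not tested are left out of these counts. Several called genes had another probe above background on no array, among them Slc8a1, Slc8a2, Slc1a4, Slc10a7, Slc3a2, Slc27a2, Slc7a11, Slc35a1, Slc41a2 and Slc7a9. Their calls rest on the probe that was detected.

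**Figure D5:**
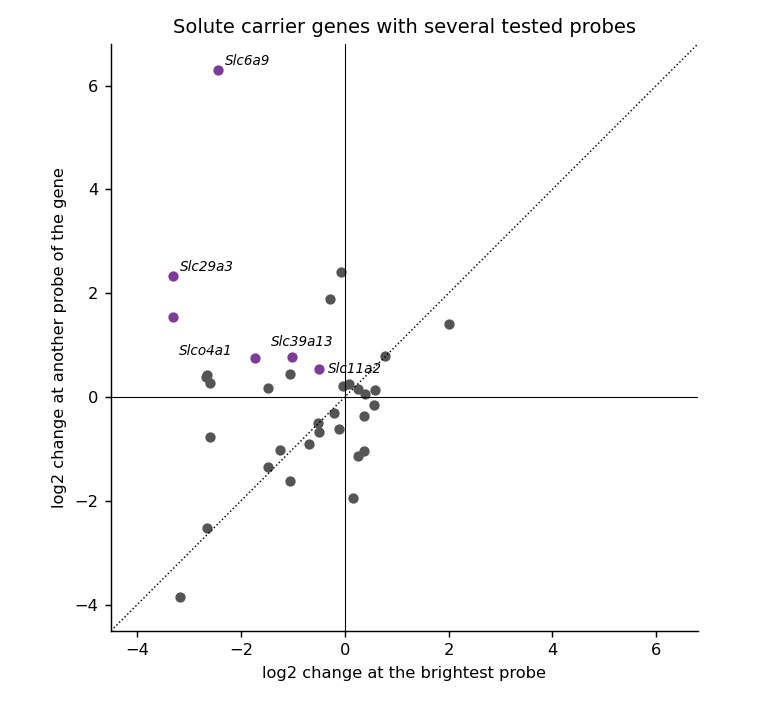
The log2 change at the other tested probes of a gene (vertical) against that at its brightest probe (horizontal), for the 30 solute carrier genes with at least 2 tested probes; the dotted line marks equal changes, and purple points are named genes with called changes of opposite sign. Slc6a9 lies farthest from the line, with -2.44 at its brightest probe and 6.30 at the other.

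The genes that serve the carriers also went both ways. Of 29 partner genes listed, 23 were tested. Of these, 8 were higher in the superficial layer, 6 in the basal layer and 9 did not pass. Over all tested genes, 37.2% were higher in the superficial layer and 28.2% in the basal layer, which is close to the list. Emb and Bsg, which bring monocarboxylate carriers to the surface, were both higher in the superficial layer, Emb at least 4.22-fold and Bsg with a change of -1.14 ± 0.078 (adjusted p = 0.00252). Subunits of the sodium pump, whose gradient many carriers use, were divided. The beta subunits Atp1b1 (change -0.90) and Atp1b2 (-0.69) were higher in the superficial layer, and Atp1b3 (0.71) in the basal layer. Wnk1, a kinase that sets the activity of the Slc12 cotransporters, was higher in the basal layer (change 0.52 ± 0.10, adjusted p = 0.0229). Wnk2 (adjusted p = 0.0679), Wnk4 (adjusted p = 0.767) and Stk39, a kinase that acts below Wnk1 (adjusted p = 0.429), did not pass. Slc12a2 and Slc12a7 were higher in the basal layer and Slc12a9 in the superficial layer, and a link to Wnk1 was not tested.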

How the data were processed

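Single-colour whole-genome arrays held the RNA of 2 captured layers of the rat crista ampullaris, 2 arrays per layer. Per the labels' protocols, RNA was isolated on columns, its poly(A) part was copied into biotin-carrying cRNA by linear amplification, and Cy5 gave the signal. Per the file headers, CodeLink Expression Analysis 4.0.0.23520 read the slides. The authors deposited, per spot, a raw intensity from which local background is already removed, a normalized intensity, equal to the raw one over the median of its array, and a flag of quality. Their series table repeats the normalized values: 3 columns equalled the scanner values within 1e-06 over 35125 rows, while that of basal layer array 2 matched in 3 rows in place and in 35029 when moved by 2 rows. The scanner files were therefore used.

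Probes were named from the platform annotation, with symbols updated to GRCr8 RefSeq: 16689 that way, 192 by RefSeq accession and 29 with the platform's older symbol. Left unnamed were 165 probes of several genes, 7 with an accession and 5 with a description of another gene, and 16762 with no gene. Control spots and spots flagged as contaminated, irregular or failed were left out (621, 48, 106 and 216 contaminated or irregular spots on the 4 arrays), so that Slc15a4, Slc25a25, Slc25a44, Slc35b2 and Slc5a2, among others, were fitted on fewer arrays. Raw intensities were quantile-normalized, raised to a floor of 0.1 of the median and taken to log2. The 16483 probes with a good or saturated spot on 2 or more of 4 arrays were tested with limma 3.58.1 in R 4.3.3 (lmFit and eBayes, two-sided, no block) with Benjamini-Hochberg adjustment over all of them, at 0.05; the prior had 1.31 degrees of freedom. The number of arrays limits the precision. The limit of fold is the mean log2 level of the brighter layer against, per array, the higher of the lowest detected level and the probe's own value, and is approximate. The script was tested on simulated data.

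Families were grouped by what they carry. The members, lists and tests were chosen with earlier results of these data known. Genes were named by rule: the 15 largest called changes in each direction on all 4 arrays, the 8 largest limits, the largest in each family with at least 4 tested members, genes well known in the inner ear, and genes whose probes have opposite calls. Other named members (Slc3a2, Slc8b1, Slc39a11, Slc30a4, Slc30a9, Slc25a4, Slc25a5, Slc33a1, Slc7a1, Slc13a3, Slc13a4, Slc27a6 and Slc5a11 among them) and the promoter motifs were chosen after their values were seen. Alternatives were another scaling, the scanner software's values, other floors, other filters, flagged spots kept, the mean over probes, an intensity trend, the replicate number as a block and each array left out. Same-numbered arrays did not deviate together (r = -0.028 across probes), so the main fit has no block. Some genes are not reported here.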

Additional observations from a re-analysis of the deposited data

How the results depend on the processing

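Of 97 called solute carrier genes, 40 passed in every alternative that gave a value, and 3 had the opposite sign in one. The 40 are counted by adjusted p alone, without regard to direction. They include Slc6a9, which passed in the opposite direction with the mean over probes (change 1.93). The counts of 63 genes higher in the superficial layer and 34 in the basal layer moved by over 1.5 times in some settings: to 40 and 18 with no filter on dim probes (280 genes tested), to 36 in the superficial layer on probes detected on all 4 arrays, and to 14 in the basal layer with the scanner software's values. With the replicate number as a block, 50 and 22 were called. Leaving out 1 array gave 32 to 69 in the superficial layer and 25 to 34 in the basal layer. The median change of -0.28 was -0.14 with arrays scaled to their medians, -0.11 with the scanner software's values, -0.12 with the floor at the detection limit, 0.088 with no filter and 0.041 on probes detected on all 4 arrays, and ran from -0.35 to 0.18 with 1 array left out. The median change of all genes itself moved by 0.12 with the scanner software's values, by 0.12 on probes detected on all 4 arrays, and by 0.16 and 0.17 without superficial layer array 1 and 2.

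The sign turned for Slc52a2 (0.031 with median scaling, 0.065 with the scanner software's values), Slc4a11 (0.0079 with the latter), Slc52a3 (0.14 without basal layer array 1; -1.84 without array 2) and, with the mean over probes, Slc29a3 (0.19), Slc6a9 (1.93) and Slc11a2 (0.019). The last 3 average probes of opposite sign; otherwise the cause was not tested. Low signal limits the rest: 29 called genes were not above background in 1 layer.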
